A study of Mus musculus with 5 samples.

Results

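FoxO factors and the ubiquitin ligases of muscle wasting were followed in C2C12, a mouse cell line of myoblasts, which are the dividing precursors of skeletal muscle fibres. The set holds 10 genes chosen by symbol: the transcription factor genes Foxo1, Foxo3 and Foxo4 and the ligase genes Fbxo32, Fbxo30, Trim63, Nedd4, Traf6, Stub1 and Cblb. Of these, 9 stand in the deposited table of 12615 genes, and Trim63, which encodes the ligase MuRF1, was not analysed here. All 9 had a mean normalized count of at least 10, the limit for testing. RNA was sequenced from 2 samples labelled miR-16 knockdown and from 3 samples with an empty vector control, all at 5 hours. Both groups were transfected with plasmid DNA, and the control plasmid was pCMVmiR. The treatment text speaks of plasmid DNA for miR-16-1 while the group label says knockdown, and the tables hold no mature miR-16 value, so which way miR-16 was changed rests on the label. Separate cultures are not stated for the samples of either group. A p-value here thus reflects sample-to-sample spread, and that spread may be technical.

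FoxO proteins are forkhead transcription factors that insulin and IGF signalling holds out of the nucleus, through phosphorylation by Akt and binding of 14-3-3 proteins. When that signal weakens, as in fasting or disuse, FoxO proteins enter the nucleus and switch on genes for protein breakdown, among them Fbxo32 and Trim63, the classical markers of muscle atrophy. The ligases then attach ubiquitin to muscle proteins, which marks many of them for the proteasome. MicroRNA miR-16 acts by pairing its seed, the bases near its 5′ end, with sites in messenger RNAs, whose level or translation it lowers.

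The seed of miR-16 gives the letters that were searched for in these transcripts. The mature sequences of miR-16-5p and of close relatives, from RefSeq (GRCm38.p6), are given with bases 2 to 8, the seed, in capitals, because all of them share it and read the same sites:
miR-16-5p: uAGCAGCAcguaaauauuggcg
miR-15a-5p: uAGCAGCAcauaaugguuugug
miR-15b-5p: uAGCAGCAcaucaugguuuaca
miR-195a-5p: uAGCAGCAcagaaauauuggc
miR-497a-5p: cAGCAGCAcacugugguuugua
miR-322-5p: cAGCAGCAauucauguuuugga
The gene of miR-16-1 gives miR-16-5p from chr14:61631936-61631957 on the minus strand, and the gene of miR-16-2 gives the same sequence from chr3:69009918-69009939 on the plus strand.

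The 3′ UTR of the longest protein-coding transcript of each gene (GENCODE release M21, GRCm38) was searched on the transcript strand for TGCTGCT, which pairs with bases 2 to 8. Such a match is called 8mer if the next base is A and 7mer-m8 if it is another base. GCTGCTA with no T before it, which pairs with bases 2 to 7, is called 7mer-A1. Of the 9 genes, 4 held a site and none held an 8mer. The matches in Foxo3, Fbxo30 and Traf6 are shown in capitals, with the flanking bases, because miR-16 could act at such sites:
Foxo3, 7mer-A1, chr10:42184428-42184434, minus strand: gcacgttgcctttcccaaGCTGCTAcatg
Fbxo30, 7mer-m8, chr10:11297575-11297581, plus strand: gggtagttagtatttaaaTGCTGCTgata
Traf6, 7mer-m8, chr2:101698784-101698790, plus strand: gtggagaggtgactgtcgTGCTGCTgtgt
Stub1 was the fourth gene with a site, and it held 2 overlapping matches of the 7mer-m8 kind. Foxo1, Foxo4, Fbxo32, Nedd4 and Cblb held no such match in 3′ UTRs of 6240, 1351, 5587, 2624 and 3356 nt. Sites were present in 29.0% of the 11478 tested genes with a 3′ UTR, and 8mers in 4.71%. Per length, the 9 genes held 0.162 sites per kb of 3′ UTR, against 0.263 for all tested genes, with both matches of Stub1 among the 5 counted. A match of these letters is a description and does not show binding. Shorter matches, coding sequences and other transcripts of each gene were not searched, so the absence of a match does not exclude pairing.

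Estimated depth, the summed signal over the signal worth 1 read, was 15149667 and 16971622 reads in the knockdown samples and 15455819, 20079060 and 15395344 reads in empty vector samples 1, 2 and 3. The names of the data columns place both knockdown samples and empty vector 2 on 1 flow cell (B) and empty vector samples 1 and 3 on another (A). Flow cell and lane are read from codes in these names. Lane and the series of library numbers in the names differ along the same line. They cannot be told apart from flow cell, so the split may be more than a sequencing run. Values on flow cell B, where empty vector 2 is the only control, are given beside the pooled ones. Of the defining myoblast markers, all 6 were in the table, with Myod1 at 1536 to 1685 normalized counts in the 5 samples. Myf5 at 101 to 155 and Pax7 at 112 to 214 were the lowest of them. The summed counts of the 6 were 6769 to 7147 in the knockdown samples and 6893 to 7197 in the empty vector samples. Of 8 markers of the differentiated myotube, 2 were in the table (Acta1 and Mylpf), and their summed counts were 56.3 to 70.1 in the knockdown samples and 39.0 to 68.4 in the empty vector samples. Of 4 macrophage, 4 endothelial and 3 adipocyte markers, 1 each was in the table (Csf1r, Kdr and Fabp4). Csf1r had 5.39 to 9.38 in the knockdown samples and 5.34 to 13.9 in the empty vector samples, and Fabp4 had 1.88 to 10.8 in the knockdown samples and 3.25 to 8.57 in the empty vector samples. Kdr had 9.38 to 12.9 in the knockdown samples and 13.9 to 22.7 in the empty vector samples, which did not overlap. Of 3 fibroblast markers, 1 was in the table, Pdgfra, at 192 to 227 in the knockdown samples and 249.9 to 262 in the empty vector samples. The groups did not overlap for Pdgfra either, where 12.4% of all tested genes were separated in that direction. Kdr lay near the limit for testing, a mean of 10. The part of Kdr and Pdgfra in the results was not tested. The hosts of the miR-16 hairpins are the non-coding Dleu2 and the condensin gene Smc4. Dleu2 had normalized counts of 12.9 and 21.6 in the knockdown samples and 16.02, 23.5 and 11.8 in the empty vector samples. Smc4 had 5178 and 5106 in the knockdown samples and 5671, 4855 and 5633 in the empty vector samples. Both groups overlapped for Dleu2 and for Smc4 (limma adjusted p = 0.993 and 0.858).

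The 9 transcripts differed widely in abundance. Levels were compared as normalized counts per kb of the longest protein-coding transcript, over all 5 samples. Nedd4, a ligase of the HECT class with broad roles in membrane protein turnover, was the most abundant at 4046 ± 304 per kb (SD, n = 5), above 98.2% of 11899 genes with a known length. Stub1, which encodes the chaperone-bound ligase CHIP, followed at 1034 ± 123 per kb (SD, n = 5), above 90.8% of genes. Fbxo30, the F-box gene also called Musa1, stood at 196 ± 7.19 per kb (SD, n = 5), close to the median gene at 170.

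The remaining 6 genes lay below the median gene. Foxo4, Foxo3, Cblb and Traf6 stood at 111 ± 7.55, 102 ± 11.7, 100.4 ± 15.1 and 100.1 ± 7.01 per kb (SD, n = 5), and neighbours in this order overlapped in their ranges. Foxo1 was lower, at 67.2 ± 6.48 per kb (SD, n = 5), and Fbxo32, the F-box gene of atrogin-1, was the lowest at 51.6 ± 5.18 (SD, n = 5), above 23.6% of genes. The ranges of Nedd4, Stub1, Fbxo30 and Foxo4 did not overlap with one another, nor did those of Traf6, Foxo1 and Fbxo32. The order within the middle group depends on the transcript taken as the length. With the median length of each gene's protein-coding transcripts, an alternative chosen after seeing the data, Foxo3 stood at 277 per kb, Fbxo30 at 262, Cblb at 173 and Foxo4 at 155, while Nedd4 stayed highest at 6044 and Fbxo32 lowest at 51.6.

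**Figure D1:**
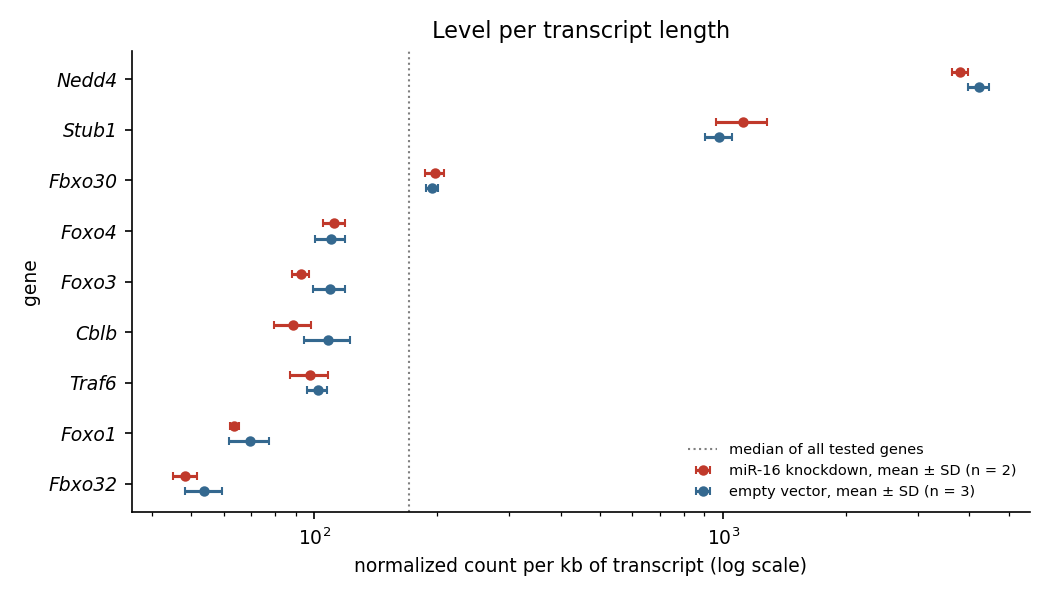
Mean normalized count per kb of transcript (log axis) of each gene, with bars of 1 SD, for the miR-16 knockdown samples (red, n = 2, upper) and the empty vector samples (blue, n = 3, lower). Nedd4 and Stub1 lie far above the median of all tested genes (dotted, 170 per kb), Fbxo30 just above it and the other 6 genes below it.

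No FoxO or ligase gene passed the test between knockdown and empty vector. By limma on log2(value + 1), 0 of 9 had an adjusted p under 0.05, as did 0 of all 11990 genes tested, or 0%. At an unadjusted p under 0.05, 2 of the 9 had lower values with knockdown, Cblb and Foxo3, and none had higher values. Among all tested genes 5.3% met that rule on the lower side, 636 genes, with a further 339 higher. Leaving out single samples changed the count for all genes but not for these 9: 107 genes passed without knockdown 1 and 28 without empty vector 2. The 95% intervals of the 9 differences all lay within a change of 1.5-fold, from 0.691 to 1.32 as ratios. The groups did not overlap for Foxo3 and Nedd4, both lower with knockdown, where 12.4% of all tested genes were separated in that direction.

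In the authors' deposited table, 4 of the 9 genes (Cblb, Foxo3, Nedd4 and Stub1) had an unadjusted p under 0.05, where 9.48% of 11488 genes did. The authors' deposited table gives an adjusted p for 7 of the 9, of which 0 were under 0.05, against 1.06% of its 6588 genes with one. Its ratios of inhibition to control were 0.822 for Cblb, 0.846 for Foxo3, 0.900 for Nedd4 and 1.15 for Stub1 in the authors' deposited table.

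**Figure D2:**
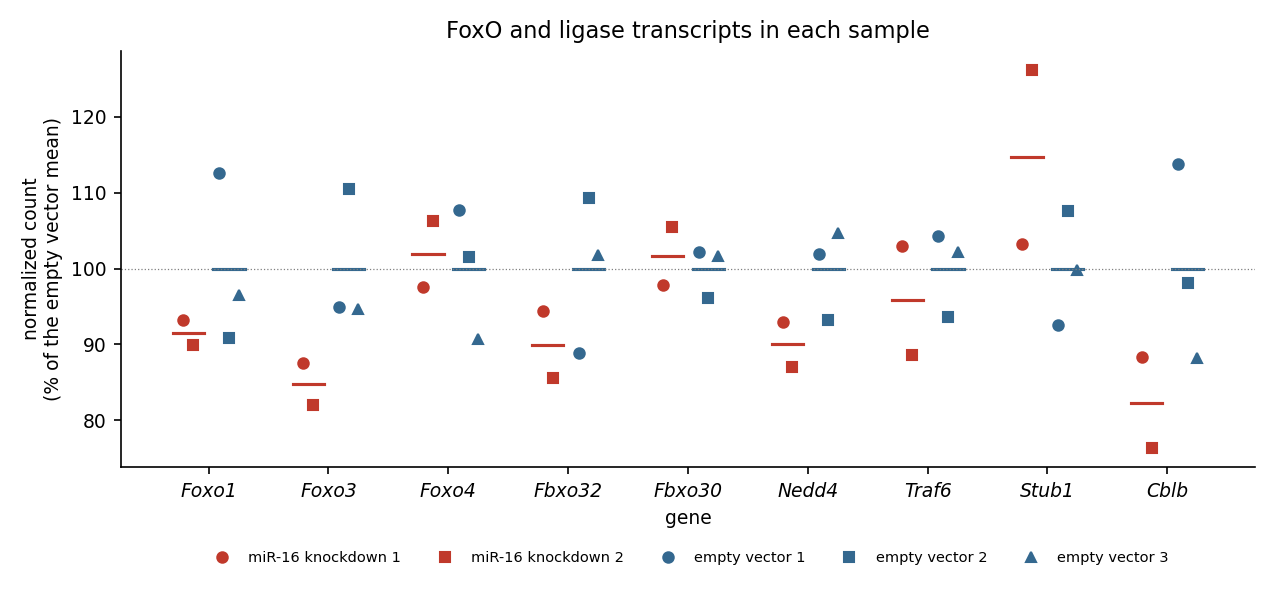
Normalized count of each gene in each sample as a percentage of the empty vector mean (vertical axis), with knockdown samples in red on the left of each gene and empty vector samples in blue on the right; short lines are group means. The knockdown points of Foxo3 and Nedd4 lie below every empty vector point, and the other 7 genes overlap.

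Foxo3 was the FoxO gene with the largest difference. It encodes the FoxO factor best known for switching on atrogin-1 and autophagy genes in muscle. Foxo3 had normalized counts of 654 and 613 in the knockdown samples, against 709, 825 and 707 in the empty vector samples. Both knockdown samples lay below all 3 controls, and empty vector 2 stood well above the other samples. Its means were 634 ± 29.6 with knockdown (SD, n = 2) and 747 ± 67.6 with empty vector (SD, n = 3), a ratio of 0.848. The limma log2 difference was -0.23 with a standard error of 0.11 and a 95% interval of -0.46 to -0.0093 (adjusted p = 0.597). On flow cell B it was -0.38. After each sample's trend on transcript length was taken out, it was -0.11.

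Foxo1 and Foxo4 overlapped between the groups. Foxo1, which encodes the factor that insulin restrains in liver and muscle, had 562 and 542 in the knockdown samples and 679, 548 and 582 in the empty vector samples. Empty vector 1 was the high sample, and the log2 difference of -0.12 (95% interval -0.37 to 0.12, limma adjusted p = 0.812) became 0.011 on flow cell B and 0.063 with the length trend removed. Foxo4, on chromosome X, had 339 and 369 in the knockdown samples and 374, 352 and 315 in the empty vector samples. Its log2 difference was 0.030 (95% interval -0.25 to 0.31, limma adjusted p = 0.967). Flow cell B gave 0.0047, and the value was -0.032 without knockdown 2 and -0.038 without empty vector 3.

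Which gene held the largest share of the FoxO pool depended on the transcript taken as the length. Of the summed level per kb of the 3 genes, Foxo4 took 40.03% and 43.4% in the knockdown samples and 39.4%, 37.7% and 36.9% in the empty vector samples. Foxo3 took 35.7% and 33.3% in the knockdown samples and 34.5%, 40.8% and 38.2% in the empty vector samples. Foxo1 held the remainder, 24.2% and 23.3% in the knockdown samples and 26.1%, 21.4% and 24.9% in the empty vector samples. The sum itself was 267 and 269 per kb with knockdown and 300.2, 295 and 270.0 per kb with empty vector. The groups did not overlap in the share of Foxo4 and overlapped in those of Foxo3 and Foxo1. The normalized counts of Foxo4 itself overlapped, so its share also reflects the counts of Foxo3 and Foxo1. The transcript of Foxo4, at 3162 nt, is shorter than those of Foxo3 and Foxo1, at 6848 and 8665 nt. The shares are not adjusted for the length trend, and its part in them was not tested. These shares use the longest transcripts, by which Foxo4 was the largest in both knockdown samples and empty vector 1, and Foxo3 in empty vector samples 2 and 3. With the median transcript length, an alternative chosen after seeing the data, Foxo3 was the largest in all 5 samples, at 54.6% and 51.7% in the knockdown samples and 53.4%, 59.7% and 57.4% in the empty vector samples. The share of Foxo4 was then 31.746% and 34.97% in the knockdown samples and 31.655%, 28.7% and 28.8% in the empty vector samples. Knockdown 1 and empty vector 1 were thus almost level. Both sets of shares come from the same counts and are not separate checks. Fewer cells of a kind and less RNA per cell cannot be told apart in such bulk samples.

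The F-box ligase genes, which are FoxO targets in wasting muscle, did not differ beyond their spread. Fbxo32 encodes atrogin-1, the substrate receptor of an SCF ligase, whose known substrates include MyoD and the translation factor eIF3f. It had 354 and 321 normalized counts in the knockdown samples, against 333, 410 and 381 in the empty vector samples. Empty vector 1 lay between the knockdown samples, and empty vector 2 was the highest. The log2 difference was -0.15 with a standard error of 0.13 and a 95% interval of -0.43 to 0.13 (limma adjusted p = 0.798). On flow cell B it was -0.28, and with the length trend removed it was -0.019. Without knockdown 2 it was -0.078, and without empty vector 2 it was -0.081.

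Fbxo30, whose product is restrained by BMP signalling in muscle, was the steadiest of the 9. It had 962 and 1037 in the knockdown samples and 1005, 945 and 999.6 in the empty vector samples, a coefficient of variation of 3.68% over all 5. Counting error alone at its depth was up to 3.35% per sample. The log2 difference was 0.023 (95% interval -0.17 to 0.22, limma adjusted p = 0.964). Flow cell B gave 0.079, and the value was -0.031 without knockdown 2 and -0.0053 without empty vector 2.

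Cblb showed the largest difference of the ligase genes. Its product, a RING ligase of the Cbl family, is known for degrading IRS-1 in unloaded muscle and for restraining lymphocyte activation. Cblb had 634 and 548 normalized counts in the knockdown samples, against 817, 704 and 633 in the empty vector samples. Knockdown 1 and empty vector 3 were level, so the groups touched. Its means were 591 ± 60.9 with knockdown (SD, n = 2) and 718 ± 92.7 with empty vector (SD, n = 3). The limma log2 difference was -0.28 with a standard error of 0.12 and a 95% interval of -0.53 to -0.021 (adjusted p = 0.591). It was -0.26 on flow cell B, -0.16 with the length trend removed, -0.17 without knockdown 2 and -0.18 without empty vector 1. Cblb was also the most variable of the 9, with a coefficient of variation of 15.04% over all samples and 12.9% within the empty vector group.

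Nedd4 was lower by a small margin with knockdown. It had 21536 and 20183 normalized counts in the knockdown samples, against 23630, 21620 and 24278 in the empty vector samples. Both knockdown samples lay below all controls, but knockdown 1 and empty vector 2 were almost level. The limma log2 difference was -0.15 with a standard error of 0.071 and a 95% interval of -0.30 to 0.00047 (adjusted p = 0.606). On flow cell B it was -0.052, and with the length trend removed -0.075. With at least 19971 estimated reads in each sample, counting error was at most 0.708%, well under the 5.98% spread of the controls.

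Traf6 encodes a RING ligase that builds signalling chains of ubiquitin downstream of cytokine receptors and is needed for denervation atrophy in mice. It had 647 and 556 in the knockdown samples and 655, 587 and 642 in the empty vector samples, so the groups overlapped. The log2 difference was -0.064 (95% interval -0.30 to 0.17, limma adjusted p = 0.900). It was 0.030 on flow cell B, 0.037 with the length trend removed and 0.044 without knockdown 2.

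Stub1 was the gene with the largest difference upward. Its product CHIP joins Hsp70 and Hsp90 chaperones to ubiquitin transfer and clears misfolded proteins. Stub1 had 1817 and 2221 normalized counts in the knockdown samples, against 1628, 1893 and 1757 in the empty vector samples. Knockdown 2 was the high sample, and knockdown 1 lay inside the control range. The limma log2 difference was 0.19 with a standard error of 0.099 and a 95% interval of -0.016 to 0.40 (adjusted p = 0.635). It was 0.086 on flow cell B and 0.13 with the length trend removed. Without knockdown 2 it was 0.049, and without knockdown 1 it was 0.34. In GENCODE, 811 exonic bases of Stub1 overlap Jmjd8 on the opposite strand, and without a stated strand setting their reads cannot be told apart. Jmjd8 had 223 and 245 in the knockdown samples and 212, 212 and 209.9 in the empty vector samples. Foxo1 and Fbxo32 overlap annotated antisense transcripts as well, by 674 and 186 bases.

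**Figure D3:**
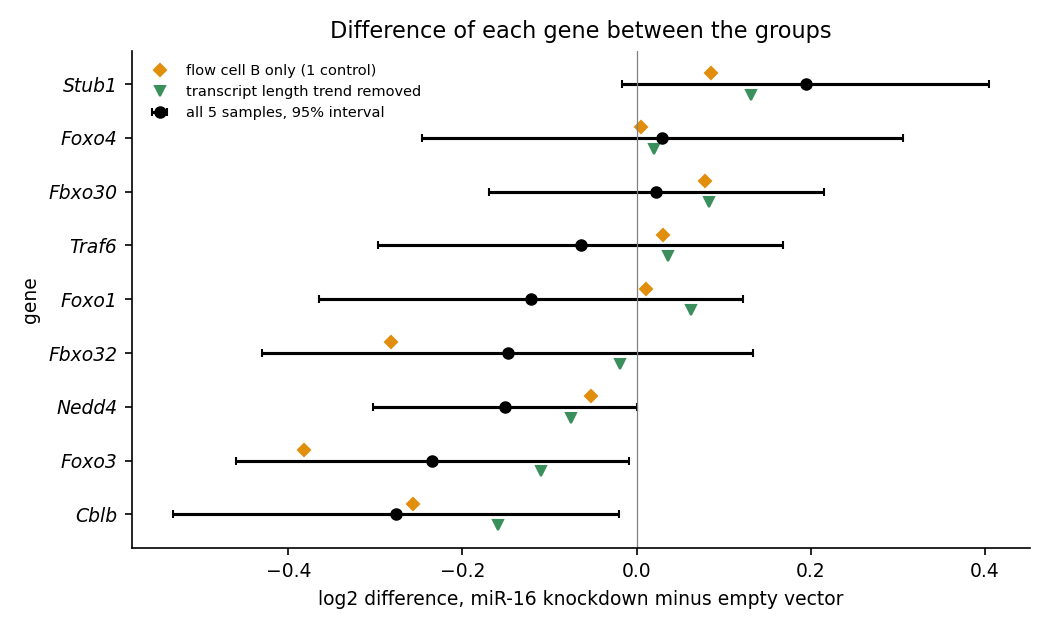
Log2 difference of each gene, miR-16 knockdown minus empty vector, from all 5 samples with its 95% interval (black), from flow cell B with 1 control (orange) and with the transcript length trend removed (green). The pooled values run from 0.19 for Stub1 to -0.28 for Cblb, and those of Foxo1 and Traf6 turn positive on flow cell B and with the length trend removed.

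Of the 4 genes with a seed site, Stub1 and Fbxo30 had positive and Foxo3 and Traf6 negative differences, and of the 5 without, Foxo4 had a positive one. Over all tested genes the median log2 difference was -0.0205 with a site and 0.00863 without. These medians are not adjusted for transcript length, along which the differences also ran, and the part of the sites was not tested.

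Transcript length ran alongside the differences. The 3 genes with the shortest transcripts, Stub1 at 1803 nt, Foxo4 at 3162 nt and Fbxo30 at 5060 nt, were the 3 with positive log2 differences, and the 6 with transcripts of 5499 to 8665 nt had negative ones. This split holds for the longest transcripts: by the median transcript length, Foxo3 at 2535 nt was the third shortest, and Fbxo30 at 3776 nt was longer than Nedd4 at 3681.5 nt. Over all genes, the median log2 difference was 0.14 in the shortest of 10 length groups and -0.18 in the longest, which holds Foxo3, Fbxo32 and Foxo1. The slope of the centred log2 values per doubling of length was -0.014 and -0.092 in knockdown samples 1 and 2 and 0.071, -0.016 and 0.050 in empty vector samples 1, 2 and 3. Knockdown 2, with the steepest slope, held the lowest value of 6 of the 9 genes, where it held that of 24.7% of all tested genes. With the trend removed, the median of the 9 was 0.019, against -0.12 before and 0.0047 on flow cell B. The part of transcript length in the differences of single genes was not tested.

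**Figure D4:**
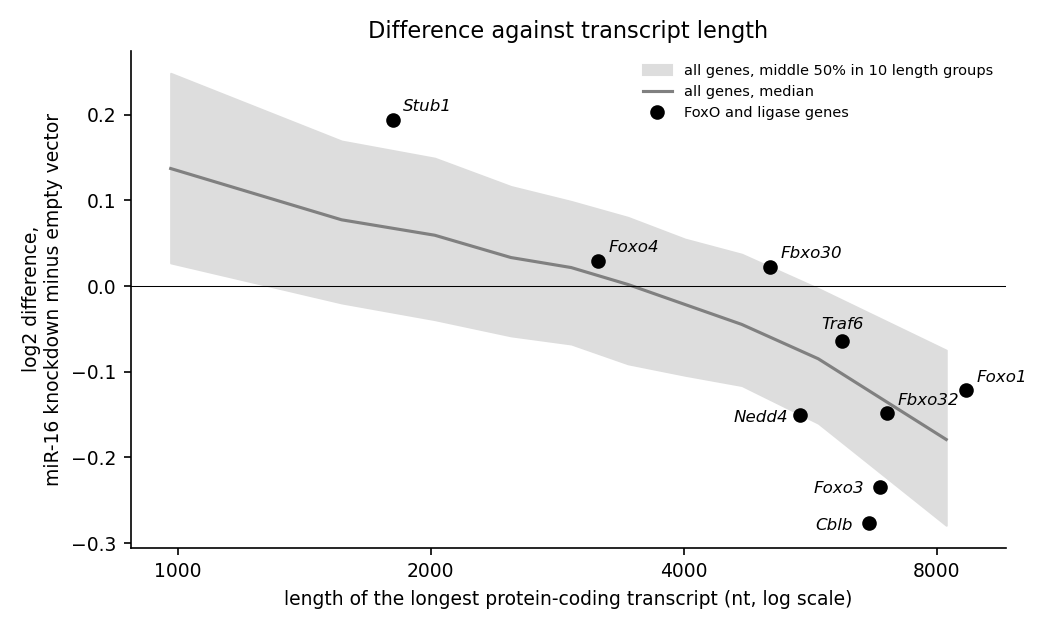
Log2 difference, miR-16 knockdown minus empty vector, against the length of the longest protein-coding transcript in nt (log axis); black points are the 9 genes, the grey line is the median of all genes in 10 length groups and the band their middle 50%. Stub1, Foxo4 and Fbxo30 lie above 0 at shorter lengths, with Stub1 above the band. Cblb lies farthest below the band, and Foxo3 lies just below it.

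Profiles over the 5 samples were compared by the root mean square difference of centred log2 values. Of the 36 pairs among the 9 genes, Nedd4 and Traf6 were closest at 0.062, followed by Foxo3 and Fbxo32 at 0.077. For both Foxo3 and Fbxo32, empty vector 2 was highest and knockdown 2 lowest. Over the 10539 genes compared, those whose mean reached 50, 0.977% were closer to Foxo3 than Fbxo32 was. The genes closest to Fbxo32 were Rnf141, Man2b2, Cul7 and Arhgef18, at 0.027 to 0.029. Those closest to Foxo3 were Pgap1, Wipf2, Gramd1b and Trib3, at 0.038 to 0.044. With 5 samples that share flow cells and group, such closeness describes these libraries only.

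The regulators of FoxO were mostly lower in value with knockdown, without a gene past the threshold. Of 35 tested, 27 had lower and 8 had higher values, where 49.77% of all tested genes had lower values. The median log2 difference was -0.055, where the median of all tested genes was 0.000725. With the length trend removed these medians were -0.025 and 0.00247. Ep300, which encodes the acetyltransferase p300, had 2547 and 1951 normalized counts in the knockdown samples and 2983, 2838 and 2899 in the empty vector samples. Its paralogue Crebbp had 1033 and 671 in the knockdown samples and 1174, 1190 and 1391 in the empty vector samples. For both, the groups were apart, as for 12.4% of all tested genes on the lower side, and knockdown 2 was the lower sample. Their log2 differences were -0.38 and -0.58 (limma adjusted p = 0.527 and 0.535), and -0.17 and -0.34 with the length trend removed. Both depended on which knockdown sample was kept: without knockdown 1 the differences were -0.57 and -0.89 and passed (limma adjusted p = 0.0130 and 0.00488), and without knockdown 2 they were -0.19 and -0.27 (limma adjusted p = 0.999 for both). Mdm2, the p53 ligase that also targets FoxO proteins, and Setd7, a methyltransferase of FoxO3, had -0.33 and -0.18 (limma adjusted p = 0.535 and 0.597).

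Known FoxO target genes went both ways. Of the 31 listed, 30 were tested, with 12 higher, 18 lower, a median of -0.043 and 0 past the threshold. Cat, which encodes catalase, had 1062 and 928 in the knockdown samples and 1217, 1234 and 1147 in the empty vector samples. Gadd45a, a stress gene, had 226 and 213 with knockdown and 299, 296 and 245 with empty vector. Rbl2, which encodes the pocket protein p130, had a log2 difference of -0.22, and Cat and Gadd45a had -0.27 and -0.34. In the opposite direction Eif4ebp1, the inhibitor of cap-dependent translation, had 0.26, though 0.064 on flow cell B. The limma adjusted p-values of these 4 were 0.565 to 0.590.

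Other ubiquitin ligases of muscle were mostly lower in value with knockdown. Of 24 listed, 19 were tested, with 3 higher, 16 lower, a median of -0.13 and 0 past the threshold. With the length trend removed the median was -0.056. Cbl, the paralogue of Cblb, had 687 and 418 in the knockdown samples and 903, 753 and 827 in the empty vector samples. Its log2 difference was -0.62 (limma adjusted p = 0.535), -0.49 on flow cell B and -0.36 with the length trend removed. The giant ligase gene Huwe1 had -0.44 (limma adjusted p = 0.565), and -0.12 with the length trend removed. Without knockdown 1, Cbl and Huwe1 had -0.98 and -0.70 and passed (limma adjusted p = 0.00488 and 0.00776). Without knockdown 2 they had -0.27 and -0.19 (limma adjusted p = 0.999 for both).

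The conjugation machinery leaned the other way. Of 22 listed names, 20 were tested, with 13 higher, 7 lower, a median of 0.036 and 0 past the threshold. Among all tested genes 49.77% were lower. With the length trend removed the median of the list was 0.018. The ubiquitin-conjugating enzyme gene Ube2e1 had 969 and 1005 in the knockdown samples and 832, 849 and 829 in the empty vector samples. Ube2n, whose product builds the signalling chains made with TRAF6, had 2153 and 2225 with knockdown and 1826, 1994 and 2011 with empty vector. Ube2d3, of a family that serves many RING and U-box ligases, had a log2 difference of 0.13, against 0.24 for Ube2e1 and 0.17 for Ube2n. For these 3 genes the knockdown samples lay above all controls, as they did for 1363 of all 11990 tested genes. Usp19, a deubiquitinase gene induced in wasting muscle, had -0.19 with both knockdown samples below the controls, as for 12.4% of tested genes. These 4 genes have the smallest p of the list, which favours such separation. The limma adjusted p-values of the 4 were 0.565 to 0.682.

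Genes of TRAF6 signalling showed 6 higher and 13 lower of 19 tested, a median of -0.044 and 0 past the threshold. Tnfrsf12a, which encodes the TWEAK receptor Fn14, had 6027 and 6188 in the knockdown samples and 4737, 5923 and 4786 in the empty vector samples. Its log2 difference of 0.25 was 0.044 against the control on the same flow cell. Sqstm1, which encodes the TRAF6-binding adaptor p62, had 13661 and 13157 with knockdown and 15520, 16742 and 14050 with empty vector, a log2 difference of -0.20. The adaptor genes Tab3 and Tab2 had -0.35 and -0.17, and -0.074 and -0.011 on flow cell B. The limma adjusted p-values of these 4 were 0.565 to 0.652.

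Substrates and partners of the ligases numbered 23, with 8 higher, 15 lower, a median of -0.041 and 0 past the threshold. The 4 with the smallest p were Plcg1 at -0.27, the Cbl substrate gene Egfr at -0.35, the Cblb substrate gene Irs1 at -0.27 and the Nedd4 substrate gene Notch1 at -0.30. Each had both knockdown samples below the controls, as did 12.4% of all tested genes, and naming by the smallest p favours this. The limma adjusted p was 0.565 for each of the 4. With the length trend removed they had -0.21, -0.12, -0.068 and -0.095. Without knockdown 2, Egfr, Irs1 and Notch1 had -0.11, -0.10 and -0.14.

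Other forkhead genes gave 5 higher and 10 lower of 15 tested, with a median of -0.056 and 0 past the threshold. Foxc2 had 1863 and 1889 in the knockdown samples and 1725, 1709 and 1483 in the empty vector samples, a log2 difference of 0.20. Foxk1, Foxn3 and Foxk2 had -0.26, -0.36 and -0.096, and their groups overlapped. The limma adjusted p-values of the 4 were 0.597 to 0.785. On flow cell B the medians were -0.034 for FoxO regulators, -0.098 for FoxO targets, -0.105 for other ligases, 0.070 for the machinery, -0.011 for TRAF6 signalling, -0.026 for substrates and partners and -0.066 for forkhead genes, where all tested genes had -0.011. With the length trend removed they were -0.025, -0.0032, -0.056, 0.018, -0.012, -0.058 and -0.0093 in the same order.

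**Figure D5:**
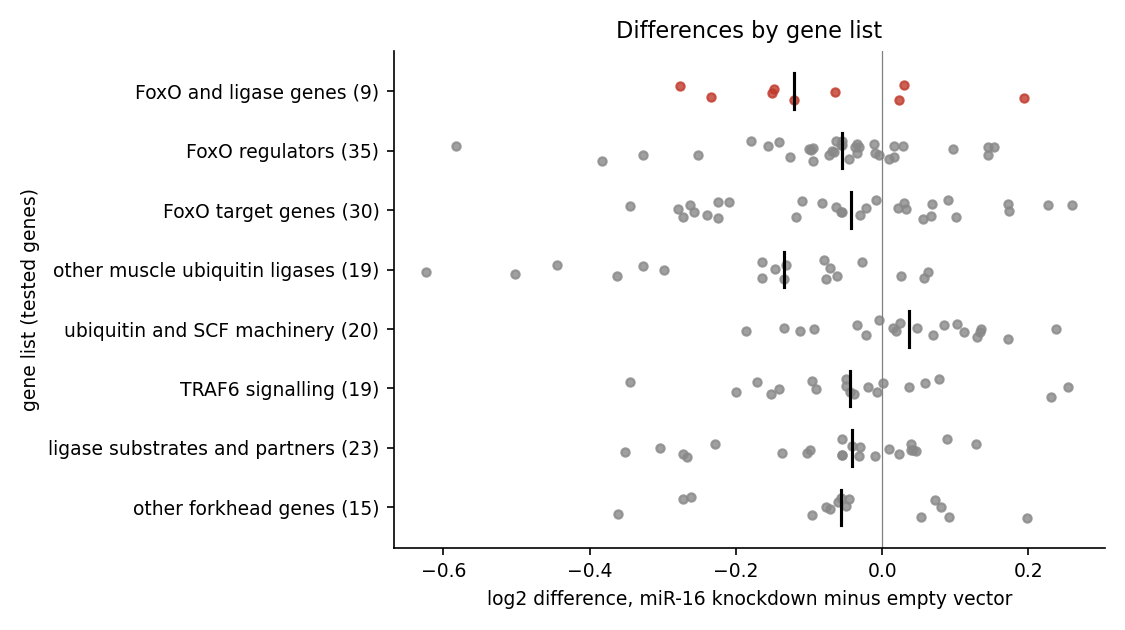
Log2 difference of each tested gene, miR-16 knockdown minus empty vector, by gene list, with the number of tested genes in parentheses and a black bar at the median; points are spread vertically for visibility. The 9 FoxO and ligase genes (red) spread around a median of -0.12, other muscle ubiquitin ligases around -0.13 and the ubiquitin and SCF machinery around 0.036.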

How the data were processed

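RNA of 5 C2C12 samples was sequenced. In the table of values that the authors deposited, each gene has a normalized signal. Its steps are those of reads scaled by a factor for each library. Between 88.7% and 89.2% of values of up to 100 reads were whole multiples of 1 read within 0.02 reads, so no count model was fitted. STAR, Partek, DESeq2 1.34.0 and the build mm9 are named, without roles, in the submitters' processing notes. Library kit and strand setting: not given in the sources used here. The gene positions looked up in the table differ from GRCm38, and their build is not settled, so only chromosomes are taken from it. The authors' deposited p-values, adjusted p-values and linear ratios were copied.

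Genes with a mean of at least 10 were tested on log2(value + 1) with limma 3.58.1 in R 4.3.3 (trend and robust estimation, two-sided, Benjamini-Hochberg over all 11990 genes, threshold 0.05), after a check on simulated data. The pseudocount shrinks the fold changes of low genes. Lengths and 3′ UTRs came from GENCODE M21, which held 99.1% of the symbols. The length trend of each sample was removed by lowess across genes with a span of 0.3. No 2 samples agreed within counting noise, so each counted once. The lowest median chi-square of a pair was 1.62, between empty vector 2 and knockdown 1, which share flow cell B. Empty vector 2 and knockdown 2, also on flow cell B, had 2.63. Knockdown 1 had 2.23 with empty vector 1 and 2.35 with empty vector 3, both on flow cell A. The 2 knockdown samples had 2.16 with each other, and pairs of empty vector samples had 2.11 to 2.91. Intervals of 95% come from the fit, and counting errors cover counting only.

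The genes and lists were chosen with earlier results of these data known. Named are all genes of the set, Dleu2 and Smc4, the 4 genes of each list with the smallest p among means of at least 50, and the 4 genes closest in profile to Fbxo32 and to Foxo3. Jmjd8 was chosen after its values were seen. Of what these rules select, 1 gene and the site sequences of Stub1 are not reported here.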

Additional observations from a re-analysis of the deposited data

How the results depend on the processing

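Across 14 alternatives (pseudocount 5, no filter or a mean of 50, quantile normalization, no variance trend, replicate block, flow cell term, flow cell B only, length trend removed, each sample left out), Foxo3, Fbxo32, Nedd4, Stub1 and Cblb kept their direction. Their log2 differences ranged from -0.38 to -0.11, -0.28 to -0.019, -0.20 to -0.052, 0.049 to 0.34 and -0.38 to -0.16. The filter settings and the fit without a variance trend cannot change the log2 difference of a gene. The flow cell term and flow cell B only give the same value, as do the replicate block and leaving out empty vector 3. The 14 alternatives are thus not separate checks of direction. The sign turned for Foxo1 with the flow cell term and on flow cell B (0.011 in both) and with the length trend removed (0.063). Traf6 turned under these 3 (0.030, 0.030 and 0.037). Under the replicate block, Foxo4 (-0.038) and Dleu2 (-0.20) turned. Dleu2 (-0.47) and Smc4 (0.083) turned with the flow cell term and on flow cell B.

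Leaving out samples turned Foxo4 without empty vector 3 (-0.038) and without knockdown 2 (-0.032), and Fbxo30 without empty vector 2 (-0.0053) and without knockdown 2 (-0.031). It turned Traf6 without knockdown 2 (0.044), and Dleu2 without empty vector 3 (-0.20) and without knockdown 2 (-0.33). Over the samples left out, Foxo4 ranged from -0.038 to 0.091, Fbxo30 from -0.031 to 0.077, Traf6 from -0.17 to 0.044 and Dleu2 from -0.33 to 0.37. At a mean of 50, Dleu2 gave no value. Where 1 sample of a group was left, it was assumed to vary like the others.

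The replicate number pairs nothing in the labels, and deviations of same-numbered samples correlated across genes at 0.086 and 0.029. Knockdown 2 and empty vector 3, of different number, had 0.061. With 2 knockdown samples their deviations mirror each other, so the values of knockdown 1 and knockdown 2 are not separate. With the replicate number as a block, 311 genes passed (62 higher, 249 lower), among them 1 of the 9, Cblb at -0.36 (limma adjusted p = 0.0388). Empty vector 3 then has a level of its own, and 1 residual degree of freedom is left per gene. Leaving out empty vector 3 without a block gave Cblb the same -0.36 (limma adjusted p = 0.772). Of the other genes named from the lists, Ep300, Mdm2, Crebbp, Cat, Cbl, Huwe1, Sqstm1 and Egfr passed under the block. With samples left out, between 0 and 107 genes passed, 28 without empty vector 2 and 107 without knockdown 1, and 0 of the 9 genes. All other alternatives gave 0. The cause was not tested.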
